A study of Mus musculus with 12 samples.

Results

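Female primordial germ cell-like cells (PGCLCs) at day 6 of culture (d6) were compared with the same kind of cell at day 3 (d3). The 4 arrays, 2 at each day, were chosen by their labels from 12 arrays in the series. Both groups were derived from embryonic stem (ES) cells of a C57BL/6 background, were female, and carried BVSC, a pair of transgenic reporters that place mVenus under Blimp1 (gene Prdm1) and ECFP under stella (gene Dppa3). Cells were sorted on the fluorescence of these reporters, so the levels of Prdm1 and Dppa3 are set in part by the sort. cDNA from 5 ng of RNA, the amount in 500 cells, was amplified by PCR before hybridisation to Affymetrix expression arrays. The other 8 arrays, also 2 for each group, served as a frame. They held female d3 PGCLCs kept 6 days more in an aggregate with female gonadal somatic cells (d3ag6), male d6 PGCLCs with the same reporters on C57BL/6, and sorted primordial germ cells (PGCs) of embryos at E9.5 (sex unknown) and E12.5 (female). The PGCs came from a mixed C57BL/6 and BDF1 background and carried stella-EGFP. The d3, d6, d3ag6 and E12.5 arrays shared the array code EA1013, while E9.5 and male d6 arrays carried EA0831 or EA0842. The labels call the arrays of a group biological replicates but do not say whether they came from separate inductions, so the p-values measure the spread between these samples, and the number of arrays limits the precision. That spread is estimated over all 6 groups. The 2 E9.5 arrays differ in code, as do the 2 male d6 arrays, so a difference between codes can enter it.

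PGCs are the embryonic founders of eggs and sperm. In the mouse they arise from a few cells of the posterior epiblast under BMP and WNT signals, at the edge of the forming mesoderm, and then shut off somatic genes, regain pluripotency factors, move to the future gonads and begin to express genes of germ cell RNA metabolism. PGCLCs are cultured counterparts induced from ES cells through an epiblast-like state, and once placed among gonadal somatic cells they can continue into meiosis.

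Values are log2 signals per gene after normalization between arrays. A change is the d6 mean minus the d3 mean with its standard error (SE) from limma, and a gene was called where its Benjamini-Hochberg adjusted p was under 0.05. The d3 arrays correlated with each other at 0.965 (Pearson, over 45101 probe sets), no more closely than d3 replicate 2 did with the d6 arrays (0.965 and 0.966), and the d6 arrays correlated at 0.971. Of the genes tested, 5.32% differed at least 2-fold between the d3 arrays and 2.75% between the d6 arrays. Counts are therefore given with each array left out as well. No detection calls were used, and a value below 4.81, the median of all values, is called dim here. In these bulk samples, fewer cells of a type and less RNA per cell cannot be told apart.

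Of 13445 genes tested, 545 were called (4.05%), 231 of them higher (1.72%) and 314 lower (2.34%) at d6, and 424 changed at least 2-fold. The median change over all genes was -0.01. Called falls were larger than called rises: 28 genes fell at least 8-fold against 10 that rose as much, and the median call was -1.55 among falls and 1.29 among rises. The count went to 182 without d3 replicate 1, 460 without d3 replicate 2, 112 without d6 replicate 1 and 212 without d6 replicate 2. Without d3 replicate 2 the split turned to 280 higher and 180 lower. With each of the 4 arrays left out in turn, 90 of the 545 genes were called each time, 33 higher and 57 lower. A fit of the 4 arrays alone called 163.

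The largest changes ran in opposite directions through different kinds of genes. Among the 15 largest rises were Tex13b and Khdc1a, the RNA-binding protein gene Cpeb2, Pfkfb3, a regulator of glycolysis, the receptor phosphatase Ptpre, the LIM homeobox gene Isl2 and Ntrk2, the receptor of brain-derived neurotrophic factor. Among the 15 largest falls were the immunoproteasome subunit Psmb8, the WNT ligand Wnt5a, the keratin Krt8, the growth factor Fgf8, the homeobox genes Nkx1-2 and Hoxc8, Apela, which encodes a ligand of the apelin receptor, and Tgif1, a repressor in the TGF-beta pathway. A group mean below 4.81 was found for 21 of these 30 genes, and 29 of the 30 still differed at least 2-fold with lower values set to that level. Of the 15 rises 10, and of the 15 falls 10, kept their calls with each of the 4 arrays left out.

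**Figure D1:**
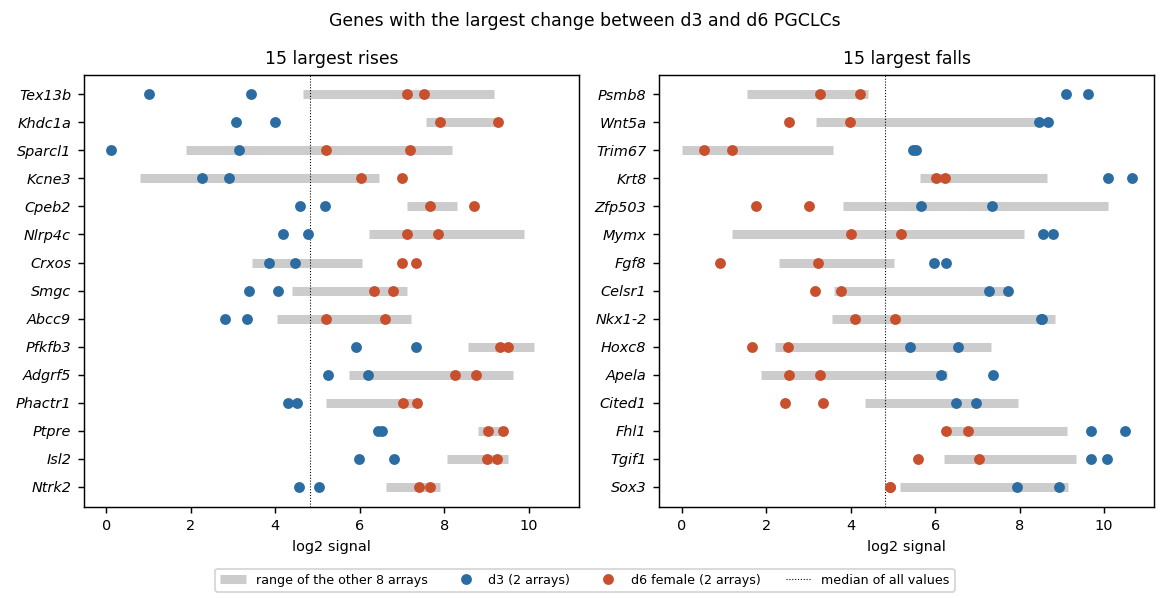
Log2 signal of the 15 genes with the largest called rise (left) and the 15 with the largest called fall (right), on the 2 d3 arrays (blue) and the 2 d6 female arrays (orange). Grey bars span the other 8 arrays, and the dotted line marks 4.81, the median of all values. Psmb8 on d3 arrays lies far above its values on the other 10, while for Crxos the d6 arrays are the highest.

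The other large changes were in genes of varied function. Sparcl1, a secreted matricellular protein, read 0.12 and 3.14 on the d3 arrays and 7.19 and 5.21 on the d6 arrays, with wide gaps within each group, and changed by 4.57 (SE 1.04, adjusted p = 0.0452). The potassium channel subunit gene Kcne3 read 2.27 and 2.91 at d3 and 6.99 and 6.04 at d6 (3.93, SE 0.65, adjusted p = 0.0132), and Abcc9, the regulatory subunit of a potassium channel gated by ATP, 2.82 and 3.33 at d3 and 6.60 and 5.2 at d6 (2.82, SE 0.59, adjusted p = 0.0342). A further probe set of Abcc9 moved by only 0.23. For Sparcl1, Kcne3 and Abcc9 the d3 arrays were dim and the d6 arrays were not. Phactr1, which binds actin and protein phosphatase 1, read 4.31 and 4.52 at d3 and 7.34 and 7.03 at d6 (2.78, SE 0.35, adjusted p = 0.00407), and Adgrf5, an adhesion G protein-coupled receptor, 6.19 and 5.24 at d3 and 8.75 and 8.24 at d6 (2.78, SE 0.30, adjusted p = 0.00269). Ntrk2 read 5.05 and 4.55 at d3 and 7.65 and 7.41 at d6 (2.73, SE 0.23, adjusted p = 0.00117). Its other probe sets with a mean above 4.81 moved by -0.30 and 1.16. Among the falls, Trim67, a tripartite motif protein, read 5.48 and 5.54 at d3 and 1.20 and 0.53 at d6 (-4.64, SE 0.55, adjusted p = 0.00339). Apela read 6.13 and 7.38 at d3 and 2.55 and 3.27 at d6 (-3.84, SE 0.56, adjusted p = 0.00817). Smgc, a further gene among the rises, read 4.07 and 3.37 at d3 and 6.33 and 6.78 at d6 (2.83, SE 0.37, adjusted p = 0.00484). Sparcl1 lost its call without d3 replicate 1, d6 replicate 1 or d6 replicate 2 (adjusted p = 0.0715 to 0.292). Kcne3 lost its call without d3 replicate 1 or d6 replicate 1 (adjusted p = 0.0883 to 0.111). Abcc9 lost its call without d3 replicate 1, d3 replicate 2 or d6 replicate 1 (adjusted p = 0.0707 to 0.224). Apela lost its call without d6 replicate 1 (adjusted p = 0.0749).

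For many of the called genes d3 stood apart from every other group. Of the 231 genes called higher at d6, 110 (47.6%) were lower on both d3 arrays than on all 10 other arrays, and of the 314 called lower, 133 (42.4%) were higher on both d3 arrays than on the other 10. Over all genes tested, d3 was below the 10 others for 2.98% and above them for 5.49%. The d6 arrays lay beyond all 10 others, in the direction of their change, for 32 genes called higher (13.9%) and 53 called lower (16.9%), against 2.62% and 1.73% of all genes. The call itself already sets d3 apart from d6, so only the position of the other 8 arrays is information beyond the call. The shares of all genes are therefore no like baseline. The d3 arrays lay below the 10 others for 400 of the 2992 genes with both d6 arrays above both d3 arrays. They lay above the 10 others for 738 of the 3349 genes with both d6 arrays below. The d6 arrays lay beyond the 10 others for 352 of the 2992 and 232 of the 3349.

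Ptpre is an example of the first pattern. Its signal was 6.43 and 6.52 on the d3 arrays and 9.40 and 9.04 on the d6 arrays, and 8.80 to 9.35 on the other 8. The d3 arrays were low and every other array stood within a narrow band; the change was 2.75 (SE 0.20, adjusted p = 0.000571), and a dimmer probe set moved by 0.96. Isl2 read 5.99 and 6.81 at d3 and 9.26 and 9.02 at d6, again with both d3 arrays below all others, whose range outside d3 and d6 was 8.07 to 9.51, and the change was 2.74 (SE 0.26, adjusted p = 0.00176). Crxos shows the second pattern, with 4.46 and 3.85 at d3 and 7.33 and 7.0 at d6 and no value above 6.06 elsewhere. Both d6 arrays were the highest of the series, and the change was 3.01 (SE 0.30, adjusted p = 0.00198). Zfp503, a zinc finger gene, was lowest on the d6 arrays (5.66 and 7.35 at d3 and 3.02 and 1.77 at d6; -4.11, SE 0.65, adjusted p = 0.0111), while on the other 8 it stood between 3.82 and 10.1. A further probe set of Zfp503 moved the other way, by 0.58. Zfp503 lost its call without d6 replicate 2 (adjusted p = 0.0704).

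**Figure D2:**
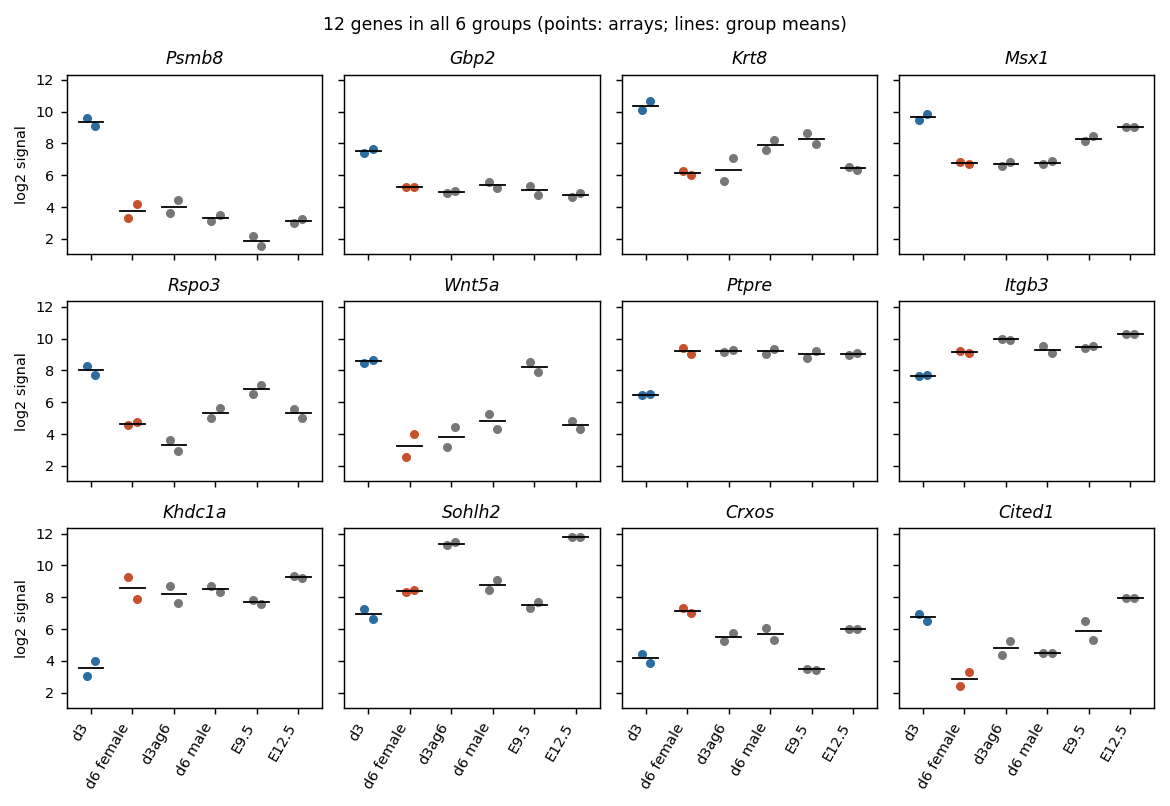
Log2 signal of 12 genes on every array of the 6 groups; points are arrays, black lines are group means, and all panels share 1 scale. Psmb8, Gbp2, Krt8 and Msx1 are highest at d3, Ptpre, Itgb3 and Khdc1a are lowest at d3, Crxos is highest at d6, and Wnt5a is high at d3 and at E9.5.

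Several genes of antigen processing fell between d3 and d6, and none rose. The list holds the inducible subunits that replace the constitutive catalytic subunits of the proteasome, the TAP peptide transporter, and the class I molecules that carry peptides to the cell surface. Of 16 genes tested 5 fell, against 2.34% of all genes, the list median was -0.81 and 13 of 16 values were negative, against a median of -0.01 over all genes. Psmb8, which encodes the inducible beta-5i subunit, read 9.61 and 9.11 on the d3 arrays and 3.28 and 4.21 on the d6 arrays, the largest fall of the comparison at -5.61 (SE 0.39, adjusted p = 0.000521). The d3 and d6 values were far apart, and none of the other 8 arrays exceeded 4.42. Psmb10, the beta-2i subunit, read 10.84 and 10.25 at d3 and 7.63 and 7.97 at d6 and changed by -2.74 (SE 0.37, adjusted p = 0.00519). Psmb9, the third inducible subunit, read 7.64 and 7.25 at d3 and 6.82 and 6.94 at d6, a difference that did not pass (-0.57, adjusted p = 0.17).

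The constitutive subunits that these replace stayed bright on all 4 arrays. Psmb5 read 12.31 and 12.39 at d3 and 12.61 and 12.56 at d6 (0.23, adjusted p = 0.452), and Psmb6 (0.01, adjusted p = 0.992) and Psmb7 (0.23, adjusted p = 0.659) did not pass either. Erap1, which trims peptides in the endoplasmic reticulum, read 7.37 and 7.13 at d3 and 5.21 and 5.86 at d6 and fell by 1.72 (SE 0.26, adjusted p = 0.00918). B2m, the light chain of class I molecules, read 9.79 and 9.66 at d3 and 8.13 and 7.49 at d6 and fell by 1.91 (SE 0.45, adjusted p = 0.0495). Tap2, a subunit of the transporter, fell by 1.02 (SE 0.23, adjusted p = 0.0437). The heavy chains H2-K1 (-0.99, adjusted p = 0.123) and H2-D1 (-1.14, adjusted p = 0.0951) and the partner transporter gene Tap1 (-1.38, adjusted p = 0.0731) had negative values that did not pass. Psmb10 lost its call without d6 replicate 1 (adjusted p = 0.0549). Erap1 lost its call without d3 replicate 1 or d6 replicate 1 (adjusted p = 0.0659 to 0.0721). B2m and Tap2 were not called without any 1 of the 4 arrays (adjusted p = 0.115 to 0.232 for B2m and 0.0697 to 0.249 for Tap2).

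Some of these genes are neighbours on chromosome 17, in the class II region of the major histocompatibility complex (GRCm38.p6). In order, Psmb9 (chr17:34182030-34187330), Tap1 (chr17:34187556-34197225), Psmb8 (chr17:34198195-34201454) and Tap2 (chr17:34204479-34216321) had differences of -0.57, -1.38, -5.61 and -1.02, of which those of Psmb8 and Tap2 passed. All were negative, and that of Psmb8 was by far the most negative.

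Interferon-induced genes did not move as 1 block. Of 24 tested, 3 fell, against 2.34% of all genes, and 0 rose, with a list median of -0.10 and 12 values of each sign. The 3 were guanylate-binding or immunity-related GTPases, which act in defence against intracellular microbes. Gbp2 read 7.39 and 7.66 on the d3 arrays and 5.29 and 5.28 on the d6 arrays, with d3 above every other array of the series, and changed by -2.24 (SE 0.22, adjusted p = 0.00198). Gbp3 read 7.72 and 8.03 at d3 and 4.73 and 5.34 at d6 and changed by -2.84 (SE 0.38, adjusted p = 0.00519). Igtp read 5.87 and 5.89 at d3 and 4.78 and 4.61 at d6 and changed by -1.19 (SE 0.19, adjusted p = 0.0109). For all 3 genes the d3 arrays lay above the d6 arrays. Ifit1 (0.89, adjusted p = 0.703) and Bst2 (0.89, adjusted p = 0.0892), other interferon-induced genes, had positive values that did not pass, and Irf1, a transcription factor of this response, had a negative one (-0.58, adjusted p = 0.144). Gbp3 lost its call without d6 replicate 1 (adjusted p = 0.0528). Igtp lost its call without d3 replicate 1, d6 replicate 1 or d6 replicate 2 (adjusted p = 0.0601 to 0.0715).

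Gbp2 and Gbp3 lie near each other on chromosome 3, with Gbp2b between them. Gbp7 (chr3:142530336-142550151), Gbp3 (chr3:142560016-142573213), Gbp2b (chr3:142594816-142619179) and Gbp2 (chr3:142620663-142638008) had differences of -0.87, -2.84, -0.70 and -2.24. Gbp7, which was not in the list and is named here for its position, was called (adjusted p = 0.0358), and Gbp2b, also outside the list, was not (adjusted p = 0.0528). Gbp7 was not called without any 1 of the 4 arrays (adjusted p = 0.0587 to 0.249).

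Because the 3 fallen GTPase genes and B2m respond to interferon, their promoters were read for the interferon-stimulated response element (ISRE). The motif searched was a pair of GAAA with any 2 bases between them, on either strand, so that TTTC, any 2 bases and TTTC is the same motif read on the opposite strand. In the window from 250 bases before to 50 after a gene's start it was present in 3.54% of the 10826 tested genes that had a window, in 6.25% of those called lower, and in 8 of 21 interferon-induced genes with a window. All 3 of the fallen GTPase genes held it, as did B2m and Erap1, whereas Psmb8 and Psmb10 did not. Irgm1, Ifit1, Bst2, Oas1a and Rsad2, which were not called, held it as well. A match describes the letters only. The 150 bases before the start are printed 5′ to 3′ on the plus strand (RefSeq, GRCm38.p6) for Gbp2 (chr3:142620513-142620662), Gbp3 (chr3:142559894-142560043), Igtp (chr11:58199406-58199555) and B2m (chr2:122147537-122147686), with the motif in capitals. In Gbp3 the capitals are 2 overlapping matches.
Gbp2: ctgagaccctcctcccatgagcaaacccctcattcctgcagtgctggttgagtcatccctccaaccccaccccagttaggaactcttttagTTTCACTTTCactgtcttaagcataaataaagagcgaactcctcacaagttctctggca
Gbp3: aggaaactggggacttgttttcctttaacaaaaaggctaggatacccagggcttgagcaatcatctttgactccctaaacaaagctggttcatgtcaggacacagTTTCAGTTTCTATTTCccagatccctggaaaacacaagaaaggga
Igtp: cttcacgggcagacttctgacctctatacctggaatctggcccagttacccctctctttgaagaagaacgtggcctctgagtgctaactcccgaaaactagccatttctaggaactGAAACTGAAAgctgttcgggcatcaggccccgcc
B2m: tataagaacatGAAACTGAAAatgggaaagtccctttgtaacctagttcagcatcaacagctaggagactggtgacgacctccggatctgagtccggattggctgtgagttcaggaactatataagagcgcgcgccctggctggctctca

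The motif begins 59 bases before the start in Gbp2, 45 in Gbp3, 34 in Igtp and 139 in B2m, and the window of a further annotated start of Gbp3 held no match.

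In the simple epithelium list 3 keratins and 2 junction genes changed. Of 22 genes tested, 4 fell, against 2.34% of all genes, 1 rose and 17 were not called (median -0.20). Krt8 and Krt18 pair into the intermediate filaments of simple epithelia and both fell. Krt8 read 10.09 and 10.66 on the d3 arrays and 6.24 and 6.03 on the d6 arrays, and Krt18 10.12 and 10.63 on the d3 arrays and 7.74 and 8.22 on the d6 arrays. Every d6 array lay well below every d3 array for both, and the changes were -4.24 (SE 0.44, adjusted p = 0.00245) and -2.39 (SE 0.26, adjusted p = 0.00269). Krt7, another keratin of simple epithelia, read 6.89 and 7.19 at d3 and 8.13 and 8.37 at d6 and rose by 1.21 (SE 0.19, adjusted p = 0.0104). These genes are on chromosome 15, Krt7 at chr15:101412403-101427806, Krt8 at chr15:101996711-102004342 and Krt18 at chr15:102028216-102032026, and of the 8 other type II keratin genes tested between Krt7 and Krt8 none was called. Cldn6, a tight junction claudin, fell by 1.33 (adjusted p = 0.0133) and Jup, plakoglobin of desmosomes and adherens junctions, fell by 1.37 (adjusted p = 0.0452). Cdh1, E-cadherin, read 11.16 and 11.25 at d3 and 11.14 and 11.05 at d6 (-0.11, adjusted p = 0.808), and Epcam, an epithelial adhesion molecule, also did not pass (-0.19, adjusted p = 0.733). Krt7 lost its call without d3 replicate 1, d6 replicate 1 or d6 replicate 2 (adjusted p = 0.0518 to 0.0715). Cldn6 lost its call without d3 replicate 1 or d6 replicate 1 (adjusted p = 0.0753 to 0.114). Jup was not called without any 1 of the 4 arrays (adjusted p = 0.0582 to 0.241).

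**Figure D3:**
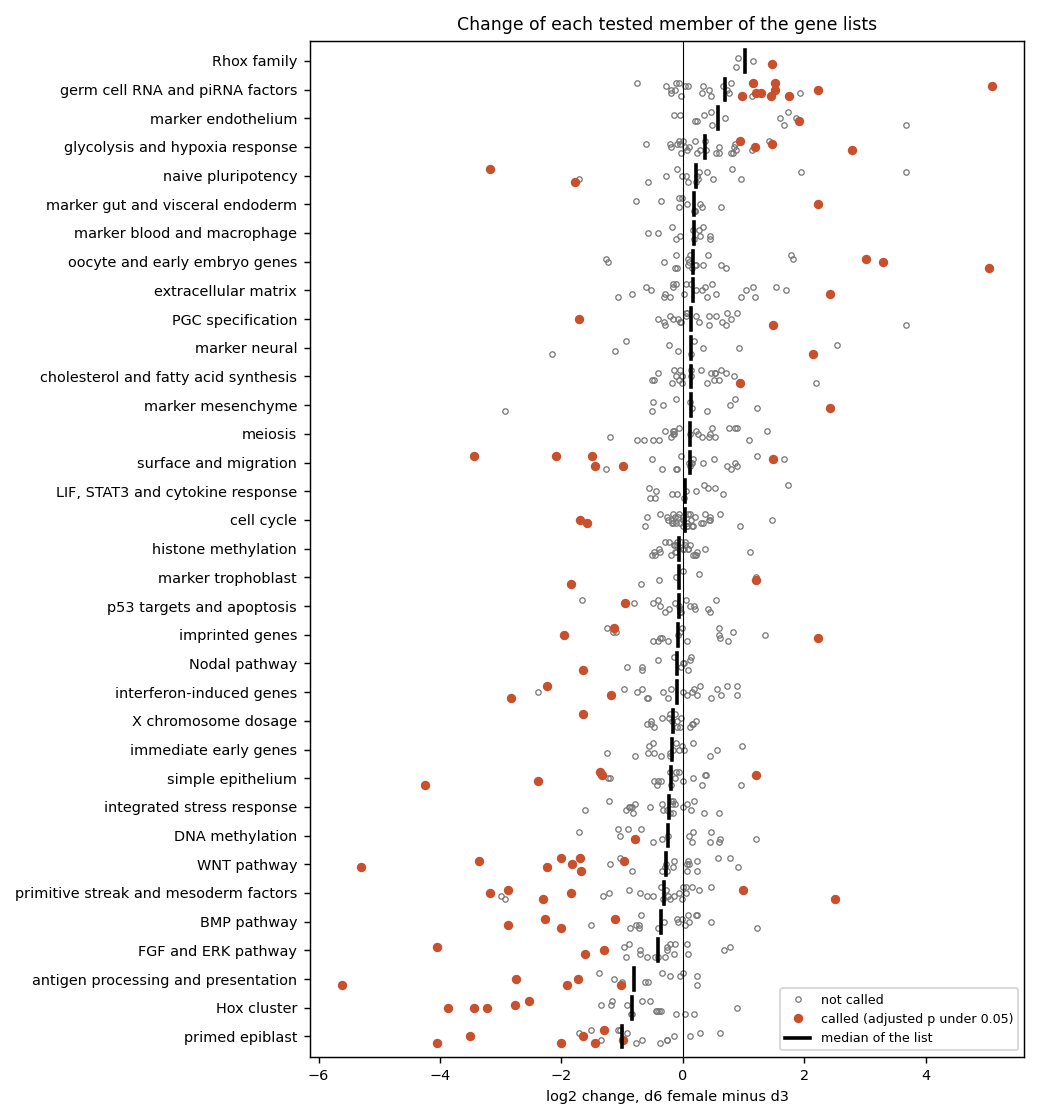
Log2 change (d6 female minus d3) of every tested member of 35 gene lists, sorted by list median. Orange points were called, open grey points were not, and black bars are list medians. Calls in the Hox, WNT, primed epiblast and antigen processing lists lie left of 0, and those in the germ cell RNA list lie right of 0.

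WNT pathway genes that were called all fell, 8 of 26 tested, against 2.34% of all genes, while the list median was -0.28. Wnt5a, a ligand that mainly acts without beta-catenin, read 8.47 and 8.68 on the d3 arrays and 2.55 and 3.99 on the d6 arrays. The arrays of the groups were widely apart, and the change was -5.30 (SE 0.56, adjusted p = 0.00247). On E9.5 PGCs it was about as high as at d3, at 8.55 and 7.92. A dimmer probe set of Wnt5a moved by 0.41, in the other direction. Rspo3, a secreted protein that amplifies WNT signals, read 8.27 and 7.74 on the d3 arrays and 4.55 and 4.75 on the d6 arrays and changed by -3.36 (SE 0.34, adjusted p = 0.0022). Its d3 values were the highest of the series.

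Of the other called genes, some are targets of the pathway and some are ligands or inhibitors. Sp5, which is switched on by beta-catenin, read 6.56 and 6.69 at d3 and 4.64 and 4.13 at d6 and fell by 2.24 (adjusted p = 0.0229), its relative Sp8 fell by 1.68 (adjusted p = 0.0122), and Ccnd1, cyclin D1, fell by 1.70 (adjusted p = 0.0422). The ligand Wnt5b fell by 1.83 (adjusted p = 0.0213), and of the secreted inhibitors Notum fell by 0.97 (adjusted p = 0.00819) and Sfrp2, which read 6.61 and 6.57 at d3 and 4.46 and 4.70 at d6, by 2.01 (adjusted p = 0.00299). Axin2, the target most often used as a readout of beta-catenin, read 9.62 and 9.36 at d3 and 8.16 and 8.76 at d6, negative but not called (-1.03, adjusted p = 0.232). The transcription factor Lef1 (0.24, adjusted p = 0.611) did not pass either. Sp8 lost its call without d3 replicate 1, d3 replicate 2 or d6 replicate 1 (adjusted p = 0.0548 to 0.104). Notum lost its call without d6 replicate 1 or d6 replicate 2 (adjusted p = 0.057 to 0.0602). Sp5, Ccnd1 and Wnt5b were not called without any 1 of the 4 arrays (adjusted p = 0.0794 to 0.13 for Sp5, 0.115 to 0.197 for Ccnd1 and 0.0586 to 0.123 for Wnt5b).

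In the BMP list 4 of 22 genes tested fell, against 2.34% of all genes, and 0 rose (median -0.37). Id1, which blocks differentiation factors of the helix-loop-helix class, read 10.89 and 10.95 on the d3 arrays and 8.78 and 9.04 on the d6 arrays and changed by -2.01 (SE 0.29, adjusted p = 0.00732). Id4 of the same family read 7.58 and 7.62 at d3 and 5.69 and 4.96 at d6 and changed by -2.27 (SE 0.27, adjusted p = 0.00336); its dimmer probe sets moved by -1.75 and -0.16. The d3 arrays were the higher for both genes. Msx1, a homeobox target of BMP, read 9.46 and 9.87 at d3 and 6.85 and 6.73 at d6 (-2.88, SE 0.19, adjusted p = 0.000521), and Bambi, a decoy receptor that BMP induces, fell by 1.12 (adjusted p = 0.0218). The ligand Bmp4 (-0.88, adjusted p = 0.0964), the receptor Bmpr1a (-0.32, adjusted p = 0.62) and the transducers Smad1 (-0.09, adjusted p = 0.924) and Smad5 (0.21, adjusted p = 0.922) did not pass. Msx2, a relative of Msx1, had a positive value (0.46, adjusted p = 0.514). Id1 lost its call without d6 replicate 1 (adjusted p = 0.0677). Bambi lost its call without d3 replicate 2, d6 replicate 1 or d6 replicate 2 (adjusted p = 0.0687 to 0.123).

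In the FGF and ERK list 3 of 21 genes fell, against 2.34% of all genes, and 0 rose, 17 of 21 values were negative and the median was -0.40. All 3 were ligands. Fgf8, a growth factor of the primitive streak, read 6.26 and 5.97 at d3 and 3.22 and 0.90 at d6 and changed by -4.06 (SE 0.77, adjusted p = 0.0231). The d6 arrays differed more than 4-fold between themselves, and both were dim. Fgf4 read 6.93 and 6.75 at d3 and 4.92 and 5.54 at d6 and fell by 1.61 (adjusted p = 0.0283). Fgf5, a marker of the primed epiblast, was low throughout, at 4.95 and 4.46 at d3 and 3.25 and 3.56 at d6, and fell by 1.29 (adjusted p = 0.0198). The feedback inhibitors Spry1 (-0.71, adjusted p = 0.0602), Spry2 (-0.97, adjusted p = 0.128) and Spry4 (-0.89, adjusted p = 0.113) and the receptors Fgfr1 (0.09, adjusted p = 0.922) and Fgfr2 (0.67, adjusted p = 0.247) did not pass. Fgf8 lost its call without d3 replicate 1, d3 replicate 2 or d6 replicate 2 (adjusted p = 0.0666 to 0.12). Fgf5 lost its call without d3 replicate 1, d6 replicate 1 or d6 replicate 2 (adjusted p = 0.0606 to 0.153). Fgf4 was not called without any 1 of the 4 arrays (adjusted p = 0.0526 to 0.2). In the Nodal list 1 of 12 genes fell, against 2.34% of all genes. It was the Nodal antagonist Lefty1, from 11.97 and 12.07 to 10.14 and 10.62 (change -1.64, SE 0.24, adjusted p = 0.00783). Lefty1 lost its call without d6 replicate 1 (adjusted p = 0.0721). Of 14 genes of the LIF, STAT3 and cytokine list limma called 0, against 4.05% of all genes, and 3 had an unadjusted p under 0.05.

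Factors of the primitive streak and mesoderm moved both ways, with 4 of 28 lower and 2 higher, against 2.34% and 1.72% of all genes, and a median of -0.30. The T-box gene Tbx3 read 7.14 and 7.37 on the d3 arrays and 3.80 and 4.35 on the d6 arrays, both d6 values below both d3 values, and changed by -3.18 (SE 0.40, adjusted p = 0.00407). Evx1, a homeobox gene of the posterior streak, read 8.6 and 8.76 at d3 and 5.98 and 6.77 at d6 and changed by -2.30 (SE 0.26, adjusted p = 0.00288). Msx1, given above, was another of the 4. Cdx2, which patterns the posterior body and also marks trophoblast, read 7.40 and 7.81 at d3 and 5.83 and 5.70 at d6 and fell by 1.84 (adjusted p = 0.0148). Against these, Lhx1, a LIM homeobox gene, read 4.18 and 4.67 at d3 and 7.08 and 6.79 at d6 and changed by 2.51 (SE 0.22, adjusted p = 0.00123), and Gata2, a factor of blood and other lineages, read 9.69 and 9.50 at d3 and 10.69 and 10.48 at d6 and rose by 0.99 (adjusted p = 0.0122). For both genes every d6 array was above every d3 array. Gata2 lost its call without d3 replicate 2 or d6 replicate 1 (adjusted p = 0.0549 to 0.111). Cdx2 was not called without any 1 of the 4 arrays (adjusted p = 0.0533 to 0.0897).

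Of 21 Hox genes bright enough to be tested, 5 fell, against 2.34% of all genes, and 18 had negative values, with a median of -0.84. Hox genes give cells their position along the body axis, and higher paralogue numbers mark more posterior levels. The 5 called genes were Hoxa9, Hoxa10, Hoxc8, Hoxc10 and Hoxd9, all of paralogue groups 8 to 10, of which 9 genes were tested (median change -2.54). None of 9 genes of groups 1 to 7 (median -0.35) and none of 3 of groups 11 to 13 (median -0.67) was called; this split was made after the values were seen and carries no test. Hoxd9 read 8.12 and 7.81 on the d3 arrays and 4.49 and 4.58 on the d6 arrays, with d3 well above d6, and changed by -3.43 (SE 0.27, adjusted p = 0.000874). Hoxa9 read 7.19 and 7.18 at d3 and 4.22 and 3.70 at d6 (-3.22, SE 0.51, adjusted p = 0.0111), Hoxa10 6.14 and 6.98 at d3 and 3.33 and 4.27 at d6 (-2.76, SE 0.49, adjusted p = 0.0173) and Hoxc8 5.40 and 6.54 at d3 and 1.68 and 2.52 at d6 (-3.87, SE 0.56, adjusted p = 0.00765). All d6 values of these genes were below 4.81. The B cluster had no call, although Hoxb9 read 3.88 and 5.03 at d3 and 3.20 and 3.36 at d6 (-1.17, adjusted p = 0.323). Hoxa9 lost its call without d3 replicate 1, d6 replicate 1 or d6 replicate 2 (adjusted p = 0.0577 to 0.0716). Hoxa10 lost its call without d3 replicate 2 or d6 replicate 1 (adjusted p = 0.0725 to 0.133). Hoxc8 lost its call without d6 replicate 1 (adjusted p = 0.0721). Hoxc10 was not called without any 1 of the 4 arrays (adjusted p = 0.0897 to 0.154).

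Nkx1-2, a homeobox gene of the posterior epiblast and caudal progenitors, read 8.52 and 8.52 on the d3 arrays and 4.10 and 5.04 on the d6 arrays, a fall of 3.95 (SE 0.28, adjusted p = 0.000538) in which the d3 arrays nearly coincided. Celsr1, a cadherin of planar cell polarity, read 7.72 and 7.26 at d3 and 3.15 and 3.76 at d6 and changed by -4.04 (SE 0.42, adjusted p = 0.0023). Tgif1 read 10.06 and 9.69 at d3 and 5.6 and 7.05 at d6 and changed by -3.55 (SE 0.48, adjusted p = 0.00536). All 3 genes kept their calls with each of the 4 arrays left out. Mymx, a small membrane protein of muscle cell fusion, read 8.80 and 8.55 at d3 and 4.0 and 5.2 at d6 (-4.08, SE 0.74, adjusted p = 0.019), and on male d6 arrays it was 8.10 and 7.12. Mymx lost its call without d3 replicate 1, d3 replicate 2 or d6 replicate 1 (adjusted p = 0.0582 to 0.144).

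Genes of the primed epiblast gave the lowest median of the lists, -1.01, with 7 of 22 lower, against 2.34% of all genes, and 0 higher. Besides Fgf5, Fgf8 and Lefty1, named above, these were Sox3, Sfrp2, Cdh2 and Epha2. Sox3, a SOX factor of the epiblast and neural plate, read 7.94 and 8.93 at d3 and 4.92 and 4.93 at d6, and the d6 arrays were both lower than all other arrays of the series. Cdh2, N-cadherin, fell by 1.45 (adjusted p = 0.0408), and the ephrin receptor gene Epha2 by 0.98 (adjusted p = 0.0425). Otx2, a homeobox factor of the epiblast, was at or below 4.95 on all 4 arrays (-0.76, adjusted p = 0.605), and the DNA methyltransferase gene Dnmt3b was not called (-1.04, adjusted p = 0.336). Cdh2 and Epha2 were not called without any 1 of the 4 arrays (adjusted p = 0.0898 to 0.234 for Cdh2 and 0.0517 to 0.291 for Epha2).

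Transcription factors that specify PGCs stayed high. Of 24 genes of the PGC specification list 1 rose, 1 fell and 22 were not called (median 0.14). That is 8.33% called, against 4.05% of all genes. Prdm14 read 10.66 and 10.83 at d3 and 10.95 and 11.06 at d6 (0.26, adjusted p = 0.477), Tfap2c 12.02 and 12.04 at d3 and 11.88 and 11.86 at d6 (-0.16, adjusted p = 0.659) and Pou5f1, the pluripotency factor OCT4, 12.78 and 12.81 at d3 and 12.81 and 12.89 at d6 (0.06, adjusted p = 0.922). Prdm1, on whose reporter the cells were sorted, read 9.90 and 10.67 at d3 and 10.71 and 10.72 at d6, and Dppa3, the other sorted reporter, 12.65 and 12.55 at d3 and 13.10 and 12.97 at d6; neither passed (adjusted p = 0.503 and 0.147). Kit, the receptor of stem cell factor, read 10.30 and 11.92 at d3 and 11.85 and 11.94 at d6, and d3 replicate 1 alone was low (0.79, adjusted p = 0.456). These defining markers of PGCs were bright on all 4 arrays, as the label of the cells states.

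The gene that rose in this list was Itgb3, the integrin beta-3 chain, also called CD61 and used to sort PGCLCs. It read 7.67 and 7.68 on the d3 arrays and 9.21 and 9.12 on the d6 arrays, with d6 clearly above d3, and changed by 1.49 (SE 0.17, adjusted p = 0.00299). It was 9.07 to 10.3 on the other 8 arrays, so that d3 was the lowest state of the series. Fut4, a fucosyltransferase gene, was low, with 4.95 and 4.84 at d3 and 3.22 and 3.13 at d6, and changed by -1.72 (SE 0.23, adjusted p = 0.00582). Its d3 values lay just above 4.81 and its d6 values were dim, and a dimmer probe set moved by -0.29. Fut4 is the 1 gene of the list that fell. Dnd1, an RNA-binding protein that PGCs need to survive, was higher on both d6 arrays but did not pass (10.38 and 10.91 at d3 and 11.41 and 11.33 at d6; 0.73, adjusted p = 0.102). In the naive pluripotency list 2 of 19 genes fell, against 2.34% of all genes, and 0 rose. The 2 were Tbx3 and Nr0b1 (by 1.78, adjusted p = 0.0351). Nanog read 9.79 and 11.25 at d3 and 11.52 and 10.95 at d6 (0.71, adjusted p = 0.531), again with d3 replicate 1 the lowest, and Esrrb, a nuclear receptor of naive cells, read 11.76 and 11.82 at d3 and 12.01 and 12.03 at d6 (0.23, adjusted p = 0.51). Nr0b1 was not called without any 1 of the 4 arrays (adjusted p = 0.0697 to 0.183).

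Germ cell RNA and piRNA factors were the list with the most rises. piRNAs are small RNAs that silence transposons in germ cells, and the proteins that make and use them collect in germ granules. Of 30 genes tested 10 rose and 0 fell, against 1.72% of all genes called higher, and the list median was 0.69. The 10 were Tex13b, Brdt, Slc25a31, Piwil2, Asz1, Sohlh2, Tex19.1, Mov10l1, Tdrkh and Stk31. The list is wider than its name: Brdt, Slc25a31 and Sohlh2 encode a bromodomain protein, a mitochondrial carrier and a helix-loop-helix factor. Like all lists here, it was chosen with earlier results of these data known, so its share of calls is not independent support. The steps were moderate, and 8 of the 10 changes lay between 0.97 and 1.75. The median difference between the d3 arrays over this list was -0.46 (replicate 2 minus replicate 1), so on d3 replicate 2 these genes stood lower than on d3 replicate 1.

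Among the piRNA genes, Piwil2, a PIWI protein that binds piRNAs, read 7.46 and 6.47 on the d3 arrays and 8.6 and 8.36 on the d6 arrays (1.52, SE 0.34, adjusted p = 0.0423). Mov10l1, the helicase that starts piRNA production, read 5.70 and 5.59 at d3 and 7.34 and 6.35 at d6 (1.20, SE 0.27, adjusted p = 0.0431), and Asz1, a mitochondrial scaffold of the pathway, 4.89 and 5.82 at d3 and 6.98 and 6.76 at d6 (1.51, SE 0.31, adjusted p = 0.0323). In each case both d6 arrays were above both d3 arrays, and for all 3 the replicates of 1 of the groups differed by almost 1. All 3 were higher still in d3ag6 cells and E12.5 PGCs: Asz1, for example, read 8.66 and 8.75 in d3ag6 cells and 10.50 and 10.68 at E12.5. Tdrkh, a Tudor domain partner of PIWI proteins, rose by 1.15 (adjusted p = 0.0321) and Stk31, another Tudor protein of germ cells, by 0.97 (adjusted p = 0.0334). Tex19.1, which restrains transposons in germ cells, read 8.79 and 8.01 at d3 and 9.75 and 9.63 at d6 and rose by 1.29 (adjusted p = 0.0194). Mael (1.14, adjusted p = 0.103), Ddx4 (0.47, adjusted p = 0.498) and Dazl (1.92, adjusted p = 0.14) had positive values that did not pass. Piwil2 and Stk31 lost their calls without d3 replicate 2, d6 replicate 1 or d6 replicate 2 (adjusted p = 0.129 to 0.249 for Piwil2 and 0.104 to 0.21 for Stk31). Mov10l1 lost its call without d3 replicate 1, d3 replicate 2 or d6 replicate 1 (adjusted p = 0.129 to 0.15). Asz1 lost its call without d3 replicate 1, d6 replicate 1 or d6 replicate 2 (adjusted p = 0.104 to 0.199). Tex19.1 lost its call without d6 replicate 1 or d6 replicate 2 (adjusted p = 0.0782 to 0.137). Tdrkh was not called without any 1 of the 4 arrays (adjusted p = 0.0821 to 0.153).

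The others act in gamete formation. Tex13b read 1.02 and 3.43 on the d3 arrays and 7.51 and 7.12 on the d6 arrays, below the median of all values on both d3 arrays and well above it at d6, and changed by 5.09 (SE 0.74, adjusted p = 0.00765). Brdt, the bromodomain protein of spermatogenic cells, read 2.20 and 3.02 at d3 and 4.76 and 4.93 at d6 and changed by 2.23 (SE 0.26, adjusted p = 0.00299). Its d3 values and that of d6 replicate 1 were dim, and d6 replicate 2 stood just above 4.81. The other probe sets of Brdt moved by 0.48 and 0.70. Slc25a31, the carrier that moves ADP and ATP across the mitochondrial membrane in germ cells, read 6.26 and 5.58 at d3 and 8.0 and 7.33 at d6 and changed by 1.75 (SE 0.26, adjusted p = 0.00881). Sohlh2, a helix-loop-helix factor of early oocytes and spermatogonia, read 7.24 and 6.65 at d3 and 8.35 and 8.43 at d6 and changed by 1.45 (SE 0.26, adjusted p = 0.0181). It stood at 11.27 and 11.50 in d3ag6 cells and at 11.77 and 11.82 in E12.5 PGCs, so the d6 level lay between d3 and those groups. Tex13b and Slc25a31 lost their calls without d6 replicate 1 (adjusted p = 0.0675 for Tex13b and 0.0669 for Slc25a31). Sohlh2 lost its call without d3 replicate 2, d6 replicate 1 or d6 replicate 2 (adjusted p = 0.0692 to 0.104).

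Several germ cell genes are bound at a CACGTG E-box by factors of the helix-loop-helix class, and their promoters were read for that motif, which is the same on both strands. It was in the windows of 11.4% of all tested genes with a window and in 11 of 26 germ cell RNA and piRNA genes with one. Of the 9 that were called and had a window, 4 held it, Brdt, Slc25a31, Stk31 and Mov10l1. Ddx4, Mael and Hormad1, which were not called, held it too, and among all genes called higher at d6 the share was 8.79%. Matches are again no more than a description. The 150 bases before the start, plus strand, 5′ to 3′ (RefSeq, GRCm38.p6), are given for Brdt (chr5:107331044-107331193), Slc25a31 (chr3:40708721-40708870) and Stk31 (chr6:49395389-49395538), with the E-box in capitals.
Brdt: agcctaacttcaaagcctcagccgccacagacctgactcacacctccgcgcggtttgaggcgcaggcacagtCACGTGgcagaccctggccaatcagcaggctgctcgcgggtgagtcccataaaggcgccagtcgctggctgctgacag
Slc25a31: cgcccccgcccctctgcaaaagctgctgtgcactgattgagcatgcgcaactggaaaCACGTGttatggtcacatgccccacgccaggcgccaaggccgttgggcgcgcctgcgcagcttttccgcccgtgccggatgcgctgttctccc
Stk31: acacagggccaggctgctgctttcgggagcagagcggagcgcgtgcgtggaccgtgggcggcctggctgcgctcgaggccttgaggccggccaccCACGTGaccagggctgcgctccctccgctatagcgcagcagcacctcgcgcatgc

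The E-box begins 78, 93 and 55 bases before the start in Brdt, Slc25a31 and Stk31. Stk31 has a further annotated start, 120 bases after the same E-box begins. In Mov10l1 the motif begins 246 bases before the start.

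Meiosis genes had no call in limma, the tool used here. Of 25 tested 0 passed, against 4.05% of all genes, and 4 had an unadjusted p under 0.05, with a list median of 0.11. Stra8, the switch into meiosis, was dim on all 4 arrays (4.46 and 4.11 at d3 and 3.49 and 3.81 at d6; -0.63, adjusted p = 0.453). Sycp3, of the synaptonemal complex, read 7.50 and 6.79 at d3 and 7.74 and 7.18 at d6 (0.32, adjusted p = 0.608). The cohesin subunits of meiosis, Smc1b (1.39, adjusted p = 0.0854) and Stag3 (0.90, adjusted p = 0.0761), had the lowest p-values of the list. Among oocyte and early embryo genes 3 of 22 rose, against 1.72% of all genes, and 0 fell (median 0.17), namely Khdc1a, Cpeb2 and the NLR family gene Nlrp4c, all of which kept their calls with each array left out. Khdc1a read 3.08 and 3.99 on the d3 arrays and 9.28 and 7.89 on the d6 arrays (5.05, SE 0.50, adjusted p = 0.00198). Cpeb2 read 4.58 and 5.19 at d3 and 8.71 and 7.65 at d6 (3.30, SE 0.43, adjusted p = 0.00486) and Nlrp4c 4.76 and 4.19 at d3 and 7.86 and 7.12 at d6 (3.01, SE 0.28, adjusted p = 0.00168). Every d6 array was far above every d3 array for the 3 genes. On the 8 other arrays Khdc1a stood at 7.58 to 9.33, so that its d3 values were the lowest. Nobox (-0.31, adjusted p = 0.798) and Figla (0.22, adjusted p = 0.811), transcription factors of primordial follicles, did not pass. In the X-linked Rhox homeobox family, 1 of 4 genes tested rose, against 1.72% of all genes. It was Rhox6, from 11.74 and 10.42 to 12.57 and 12.52 (change 1.47, SE 0.34, adjusted p = 0.0493). Rhox6 lost its call without d3 replicate 2, d6 replicate 1 or d6 replicate 2 (adjusted p = 0.0524 to 0.24).

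Surface and migration genes changed in both directions, with 5 of 25 lower, against 2.34% of all genes, and 1 higher, Itgb3. Cxcl12, the chemokine that guides migrating PGCs, read 7.26 and 7.95 on the d3 arrays and 3.67 and 4.66 on the d6 arrays, with d3 and d6 far apart (log2 change -3.44, SE 0.50, adjusted p = 0.00783). Its receptor gene Cxcr4 stood near the median of all values, at 4.24 and 4.64 at d3 and 5.26 and 5.42 at d6, and did not pass (0.90, adjusted p = 0.192). Integrins went apart: Itgb5 fell by 2.09 (adjusted p = 0.024) and Itga6 by 1.5 (adjusted p = 0.0417), while Itgb3 rose and Itgb1 did not pass (0.11, adjusted p = 0.92). In the extracellular matrix list 1 of 26 genes rose, against 1.72% of all genes. It was the fibrillar collagen gene Col3a1, from 4.69 and 4.78 to 7.28 and 7.06 (change 2.43, SE 0.46, adjusted p = 0.0225). Cxcl12 lost its call without d6 replicate 1 (adjusted p = 0.0696). Itgb5, Itga6 and Col3a1 were not called without any 1 of the 4 arrays (adjusted p = 0.0549 to 0.182 for Itgb5, 0.0558 to 0.277 for Itga6 and 0.0687 to 0.148 for Col3a1).

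In the glycolysis and hypoxia list 4 of 30 genes rose, against 1.72% of all genes, and 0 fell (median 0.37). Pfkfb3 makes fructose 2,6-bisphosphate, the activator of phosphofructokinase, and read 5.92 and 7.33 on the d3 arrays and 9.31 and 9.50 on the d6 arrays (2.78, SE 0.46, adjusted p = 0.0132). A dimmer probe set of this gene moved by -0.35. Pfkfb4, of the same family, rose by 1.20 (adjusted p = 0.0323). Egln1 and Egln3, the oxygen sensors that mark HIF for destruction, rose by 1.46 (adjusted p = 0.0367; 0.58 on a further probe set) and 0.94 (adjusted p = 0.0319). The enzyme and transporter genes Hk2 (0.39, adjusted p = 0.523), Ldha (0.28, adjusted p = 0.723), Pgk1 (-0.05, adjusted p = 0.972) and Slc2a1 (-0.20, adjusted p = 0.733) did not pass. Pfkfb3 lost its call without d3 replicate 1, d6 replicate 1 or d6 replicate 2 (adjusted p = 0.0598 to 0.0845). Pfkfb4, Egln1 and Egln3 were not called without any 1 of the 4 arrays (adjusted p = 0.0837 to 0.188 for Pfkfb4, 0.061 to 0.194 for Egln1 and 0.0819 to 0.177 for Egln3). In the cholesterol and fatty acid synthesis list 1 of 25 rose, the desaturase gene Scd1 (by 0.94, adjusted p = 0.0226), against 1.72% of all genes. Scd1 lost its call without d3 replicate 2, d6 replicate 1 or d6 replicate 2 (adjusted p = 0.0875 to 0.124).

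Other lists of cell functions are read against the 4.05% of all genes that were called. In the cell cycle list 2 of 38 genes fell, Ccnd1 and the G1 kinase gene Cdk6 (by 1.57, adjusted p = 0.045), and the median was 0.03. Of 20 p53 targets and apoptosis genes 1 fell, the death factor Bcl2l11 (by 0.96, adjusted p = 0.0236); its 4 other probe sets above 4.81 moved by only -0.29 to 0.15. With limma 0 genes were called among 24 of the integrated stress response (median -0.23, 6 at an unadjusted p under 0.05), 18 immediate early genes (median -0.18, 4 such genes) and 28 histone methylation genes (median -0.06, 2 such genes). In the DNA methylation list 1 of 17 fell, the methyl-CpG reader Zbtb33 (by 0.78, adjusted p = 0.0289; -0.22 on a dimmer probe set). Tet1, which oxidises methylcytosine, read 8.83 and 10.96 at d3 and 11.14 and 11.06 at d6 (1.20, adjusted p = 0.396), with d3 replicate 1 alone low, and Uhrf1, the partner of Dnmt1, read 8.31 and 8.59 at d3 and 7.87 and 7.22 at d6 (-0.90, adjusted p = 0.561). Of 21 imprinted genes 3 were called: Asb4 rose by 2.23 (adjusted p = 0.00737), and Sgce, by 1.96 (adjusted p = 0.0187), and Mcts2, by 1.14 (adjusted p = 0.0275), fell. Cdk6 and Sgce lost their calls without d3 replicate 2, d6 replicate 1 or d6 replicate 2 (adjusted p = 0.0957 to 0.251 for Cdk6 and 0.0518 to 0.11 for Sgce). Zbtb33 lost its call without d3 replicate 1, d6 replicate 1 or d6 replicate 2 (adjusted p = 0.0774 to 0.21). Asb4 lost its call without d6 replicate 1 (adjusted p = 0.0537). Bcl2l11 and Mcts2 were not called without any 1 of the 4 arrays (adjusted p = 0.0622 to 0.182 for Bcl2l11 and 0.0911 to 0.139 for Mcts2).

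X-linked genes tended to be lower at d6. The 445 X-linked genes tested had a median change of -0.21, and 69.9% of their values were negative, while the medians of the 19 autosomes lay between -0.04 and 0.02 and their shares of negative values between 47.8% and 56.5%. Of the X-linked genes 36 fell (8.09%) and 7 rose (1.57%), and the share that fell on an autosome was 0.458% to 3.19%. With the values as deposited the X median was -0.22, and with each of the 4 arrays left out it ran from -0.31 to -0.15. In 9 segments of 20 Mb along the chromosome the median was negative in each, from -0.29 to -0.15.

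On single arrays, the mean of 404 X-linked genes minus that of 11864 autosomal genes, taken with a mean over all arrays above 4.81, was 0.238 and 0.136 at d3 and -0.093 and -0.123 at d6, a difference of -0.29 on the log2 scale. The d3 values were the highest of all 12 arrays, and on the other 8 arrays the value lay between -0.158 (a male d6 array) and 0.049 (an E12.5 array). The other male d6 array read -0.064, so both female d6 values lay between those of the male d6 arrays, which carry other codes. The d3 and female d6 groups did not overlap, but 2 arrays against 2 cannot give a p below 0.333 in a two-sided exact permutation test, and p = 0.333 was obtained. In a list of 18 genes of X dosage and silencing, 1 fell, Rbmx, and the median was -0.16. Female cells silence an X chromosome through the RNA Xist, which read 6.12 and 6.00 at d3 and 5.58 and 5.59 at d6 and was not called (-0.47, adjusted p = 0.477); a further probe set of about the same brightness moved the other way, by 0.15.

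The fallen X-linked genes had varied functions. Cited1, a transcriptional coactivator, read 6.97 and 6.50 at d3 and 2.45 and 3.33 at d6 (-3.84, SE 0.44, adjusted p = 0.00299), and Fhl1, a LIM domain protein, read 10.50 and 9.69 at d3 and 6.27 and 6.77 at d6 (-3.58, SE 0.33, adjusted p = 0.00159). Fndc3c1 read 9.23 and 9.29 at d3 and 5.99 and 6.12 at d6, with little spread in either group (-3.20, SE 0.19, adjusted p = 0.000476). Slc7a3, a carrier of cationic amino acids, read 10.17 and 9.82 at d3 and 7.29 and 7.54 at d6 (-2.58, SE 0.41, adjusted p = 0.0111), and Dusp9, a phosphatase that turns off ERK, 10.94 and 10.50 at d3 and 8.57 and 9.01 at d6 (-1.93, SE 0.25, adjusted p = 0.0047). Widely expressed genes were among them too, such as the splicing factor gene Rbmx (-1.65, SE 0.19, adjusted p = 0.00299). Its other probe sets with a mean above 4.81 moved by -1.67 and -0.55. The translation factor gene Eif1ax (-0.82, SE 0.15, adjusted p = 0.0194) and the co-repressor gene Bcor (-0.90, SE 0.14, adjusted p = 0.00914) fell as well. The 7 that rose included Tex13b and Rhox6, described above. Slc7a3, Eif1ax and Bcor lost their calls without d3 replicate 1, d6 replicate 1 or d6 replicate 2 (adjusted p = 0.0523 to 0.0927 for Slc7a3, 0.1 to 0.119 for Eif1ax and 0.0598 to 0.0669 for Bcor). Fndc3c1, Slc7a3, Dusp9, Eif1ax and Bcor were chosen after their values were seen.

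**Figure D4:**
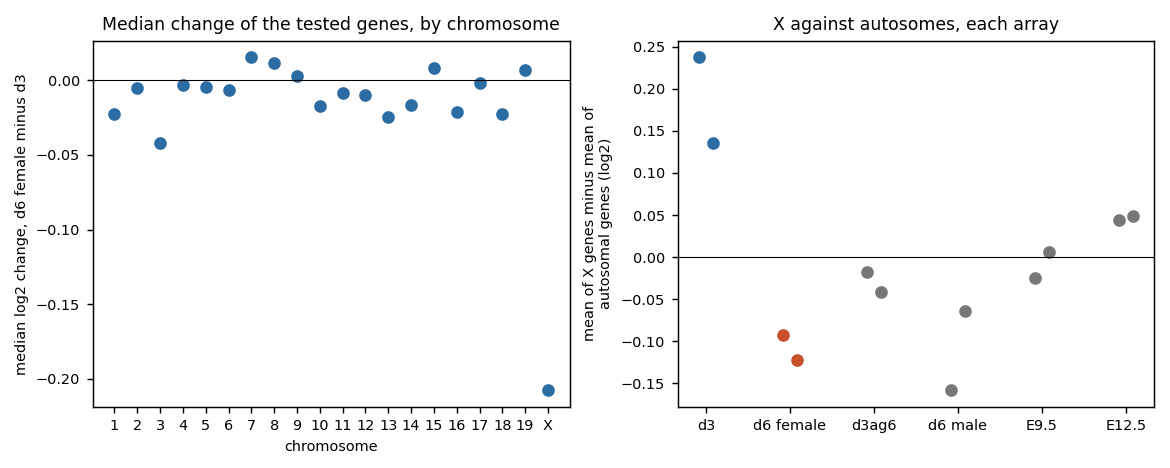
Left, median log2 change (d6 female minus d3) of the tested genes of each chromosome; the X median is -0.21 and all autosomal medians lie near 0. Right, mean log2 signal of X-linked genes minus that of autosomal genes on each of the 12 arrays, with d3 in blue and d6 female in orange; the d3 arrays, at 0.238 and 0.136, are the highest.

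Lists of markers of other cell types that could be in the sort held 0 to 2 calls each, where 4.05% of all genes were called, so in lists of this size 1 call is already above that share. Summed linear signals of the endothelial list were 1113 and 1152 at d3 and 2639 and 1531 at d6, with 12 of 14 values positive, a median of 0.59 and 1 gene called, Tek. Most of the increase was on d6 replicate 1: the vascular cadherin gene Cdh5 read 4.66 and 5.68 at d3 and 8.02 and 5.67 at d6 (1.67, adjusted p = 0.306). Pecam1, an adhesion molecule of endothelium that PGCs and pluripotent cells also carry, differed between the d3 arrays more than 8-fold, at 2.95 and 6.46 at d3 and 9.32 and 7.43 at d6 (3.67, adjusted p = 0.0984). Tek lost its call without d3 replicate 1, d6 replicate 1 or d6 replicate 2 (adjusted p = 0.0631 to 0.13).

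For blood and macrophages limma called 0 of 12 genes, with 0 at an unadjusted p under 0.05, and summed signals were 610 and 572 at d3 and 670 and 679 at d6; Ctss was between 0.87 and 1.92, and Ptprc and Hba-a1 were too dim to test. For mesenchyme 1 of 12 rose, Col3a1, with sums of 466 and 689 at d3 and 633 and 650 at d6. Dcn and Thy1 were too dim to test, and Lum was between 1.19 and 3.47. Of the 12 mesenchyme values 7 were positive and 5 negative. The lowest was that of Twist1, at 5.35 and 6.75 at d3 and 2.92 and 3.32 at d6 (-2.92), which was not called. For gut and visceral endoderm 1 of 13 rose, the endocytic receptor gene Cubn (4.45 and 4.68 at d3 and 6.94 and 6.63 at d6; 2.23, SE 0.29, adjusted p = 0.00484), sums were 1060 and 898 at d3 and 1168 and 1104 at d6, and Afp was too dim to test. For neural cells 1 of 11 rose, Pax6 (3.88 and 3.62 at d3 and 6.33 and 5.46 at d6; 2.14, SE 0.34, adjusted p = 0.0116), sums were 1205 and 725 at d3 and 821 and 658 at d6, and Sox1 was below 2 on all 4 arrays. Of the 11 neural values 6 were positive and 5 negative, the lowest at -2.16. Nes read 2.82 and 4.13 at d3 and 6.54 and 5.48 at d6 (2.54), which was not called. For trophoblast Krt7 rose and Cdx2 fell of 8 tested, sums were 547 and 767 at d3 and 713 and 700 at d6, and Tpbpa and Psg17 were too dim to test. Cubn lost its call without d6 replicate 1 (adjusted p = 0.052). Pax6 lost its call without d3 replicate 1, d3 replicate 2 or d6 replicate 1 (adjusted p = 0.0518 to 0.0882). The part of any of these cell types in the results was not tested.

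The change between E9.5 and E12.5 PGCs can be set beside that in culture, since its group means share none of the 4 arrays. Between E9.5 and E12.5 PGCs, 12.8% of all genes were called higher and 10.7% lower. Both contrasts take a gene's spread from the same fit, so a gene with a small spread is more readily called in both. The shares of all genes are therefore no like baseline here either. Of the genes called higher in culture, 77 (33.3%) were also higher at E12.5 and 33 (14.3%) lower, and of those called lower in culture, 123 (39.2%) were lower at E12.5 and 45 (14.3%) higher. The E9.5 arrays carry another code than the E12.5 arrays, so stage and code cannot be told apart in that contrast. The E12.5 PGCs were female and the sex of the E9.5 PGCs is unknown, so sex cannot be told apart from stage there either.

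An interaction contrast tested the difference between the change in culture and that in the embryo directly. It called 1574 of 13445 genes (11.7%), 724 with the culture change higher and 850 with it lower. Psmb8 differed by -6.87 (adjusted p = 0.000596), and in the embryo it was low throughout, at 2.18 and 1.54 at E9.5 and 2.98 and 3.26 at E12.5. Cited1 fell in culture and read 6.48 and 5.34 at E9.5 and 7.94 and 7.96 at E12.5, a difference of -5.88 (adjusted p = 0.00133). Actc1, Myl9 and Col3a1 had 3 of the 4 most positive differences by the rule for named genes. Actc1, cardiac actin, rose by 1.44 in culture but was 9.42 and 8.66 at E9.5 and 4.59 and 4.73 at E12.5 (difference 5.82, adjusted p = 0.000383), Myl9, a myosin light chain, rose by 2.24 in culture (difference 5.46, adjusted p = 0.00106), and Col3a1 gave a difference of 7.18 (adjusted p = 0.000935). In the culture comparison itself these changes were less firm. Myl9 lost its call without d3 replicate 1 or d6 replicate 1 (adjusted p = 0.0562 to 0.102). Actc1 and Col3a1 were not called without any 1 of the 4 arrays (adjusted p = 0.0648 to 0.148 for Actc1 and 0.0687 to 0.148 for Col3a1).

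**Figure D5:**
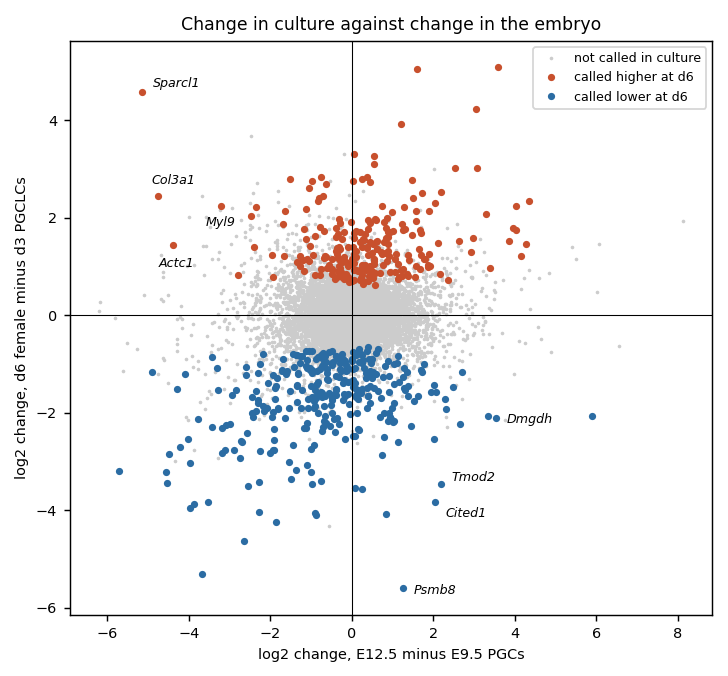
Log2 change of each tested gene in culture (d6 female minus d3, y axis) against the embryo (E12.5 minus E9.5, x axis), with genes called higher (orange) and lower (blue) in culture. The 8 named genes have the largest differences between both changes among genes called in culture and in that contrast. Sparcl1, Col3a1, Actc1 and Myl9 lie upper left and Psmb8, Cited1, Tmod2 and Dmgdh lower right.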

How the data were processed

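RNA of the 12 samples had been amplified and hybridised to Affymetrix arrays, 1 array a sample, per the labels' protocols. The authors deposited 1 table of log2 values for 45101 probe sets, with array medians of 4.73 to 4.87. The log base is taken from the range of the values (highest 13.93), and the summarisation, the normalization and the software are not given in the sources used here, so differences between arrays that were removed or added at that step cannot be seen. Values were quantile normalized between arrays here. The deposited platform annotation gave 1 gene for 34958 probe sets, several for 932 and none for 9211. The probe set with the highest mean stood for each of 18193 genes, and 13445 genes with at least 2 arrays above 4.81, the median of all values, were tested.

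limma 3.58.1 (lmFit and eBayes, in R 4.3.3) fitted 1 mean for each of the 6 groups on all 12 arrays, so that all groups share an estimate of the spread, since 2 arrays a group leave only 2 residual degrees of freedom in the comparison itself. The E9.5 and male d6 pairs, each split between EA0831 and EA0842, had the widest spread. In these pairs 8.25% and 7.24% of the genes tested differed at least 2-fold. Tests were two-sided, with Benjamini-Hochberg adjustment over all genes tested. The contrasts were d6 minus d3, and that change minus the change from E9.5 to E12.5. The fit was also run on simulated data with independent normal noise and, for each gene, the same spread in every group. The real groups differ in spread, so that run does not measure the error of the calls here. Python 3.11.15, pandas 2.3.3, numpy 2.4.6 and matplotlib 3.10.9 made the summaries and plots. Promoter windows and gene positions are from RefSeq tables of GRCm38.p6.

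The comparison, its gene lists and its alternatives were chosen with earlier results of these data known. Genes were named by a rule: the 15 largest called rises and falls with a settled symbol, from each list up to 4 called members in order of adjusted p (or the 2 lowest p where fewer than 2 were called), 9 germ cell and X genes in every case, and the 4 most positive and 4 most negative interaction values among genes called in both contrasts. Further list members, neighbours on a chromosome and X-linked genes were named after their values were seen. Alternatives left out each array, changed the arrays, the filter, the probe set rule, the normalization and the moderation, or added a replicate block. Tsix is not analysed here.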

Additional observations from a re-analysis of the deposited data

Results flagged for a closer look

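The results below are genes whose change in culture (d6 minus d3) differed from the change between E9.5 and E12.5 PGCs in the limma interaction contrast, among those called in both it and the culture comparison. In 4 the culture change was the lower. Psmb8 differed by -6.87 (adjusted p = 0.000596), from changes of -5.61 in culture and 1.26 in the embryo. Cited1 differed by -5.88 (adjusted p = 0.00133), from -3.84 and 2.04. The actin-capping gene Tmod2 differed by -5.66 (adjusted p = 0.0026), from -3.48 and 2.19, and Dmgdh, a mitochondrial enzyme of choline breakdown, by -5.66 (adjusted p = 0.00111), from -2.11 and 3.55. In the culture comparison both were called without d3 replicate 2 but not without any 1 of the other 3 arrays (adjusted p = 0.0524 to 0.0609 for Tmod2 and 0.077 to 0.137 for Dmgdh).

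In the other 4 the culture change was the higher. Sparcl1 differed by 9.72 (adjusted p = 0.00527), from 4.57 in culture and -5.15 in the embryo. In culture it was called without d3 replicate 2 but not without any 1 of the other 3 arrays (adjusted p = 0.0715 to 0.292). The collagen gene Col3a1 differed by 7.18 (adjusted p = 0.000935), from 2.43 and -4.74. Actc1 differed by 5.82 (adjusted p = 0.000383), from 1.44 and -4.38, and Myl9 by 5.46 (adjusted p = 0.00106), from 2.24 and -3.22. The E9.5 arrays carry another code than the other arrays in the contrast, so stage and code cannot be told apart. Their sex is unknown while the other arrays are female, so sex cannot be told apart from stage either.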

How the results depend on the processing

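The count of 545 genes called between d3 and d6 was 163 in a fit of those 4 arrays alone and 147 in that fit of the values as deposited (an alternative chosen after seeing the data), 313 with no filter on dim genes and 338 with probe sets averaged per gene. With 1 array left out it ran from 112 to 460. It was 547 with the replicate block, in which the replicate number is a term. Replicates of the same number deviated at a correlation of -0.25 over genes between d3 and d6 and 0.11 between E9.5 and E12.5. With these few pairs the number was taken as only a name. A block with crossed numbers, also chosen after seeing the data, gave 709. The other counts were 518 with values as deposited, 683 on the 8 arrays coded EA1013, 459 with the stricter filter, 606 with dim values set to 4.81, 572 with trend and robust moderation and 424 at 2-fold or more. The interaction count of 1574 was 1005 with no filter and 591 to 1711 with 1 array left out; the replicate block gave 1736.

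Of 118 results on named genes, 94 were called. In the fit of the 4 arrays alone 43 of the 118 lost their calls. With the replicate block 6 of 126 results did, a total that includes the interaction results. With dim values set to 4.81, 13 of the 126 results lost their calls. In addition, Dmgdh in culture became 0.0 there (adjusted p = 1), since all 4 of its values are dim. No other result on a named gene changed direction under the alternatives tried. The number of arrays and dim signals limit the precision.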
